A study of Mus musculus with 4 samples.

Results

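SR proteins and hnRNPs are the main families of RNA-binding proteins that steer the splicing of pre-mRNA. Their genes were taken from the deposited expression table as the rows of biotype protein-coding whose gene name begins with Srsf or with Hnrnp. This gave 29 of the 57180 genes in the table, 10 SR protein genes and 19 hnRNP genes, and the families are described apart. RNA was sequenced from the tibialis anterior (TA), which lifts the foot and consists mostly of fast fibres, with 2 libraries labelled Control and 2 labelled Exercise. Per the study's methods these were male C57BL/6J mice with no genetic change. Training began at 3 weeks of age and the muscle was taken at 8 weeks of age. The Control mice were sedentary. The Exercise mice were first made used to the treadmill for 5 days, at 8 rising to 12 m/min for 30 min per day. They then ran at 12 m/min for 45 min on 5 days of each of 4 weeks. The sources do not say whether a library holds RNA of a single mouse, and the p-values below refer to the spread between libraries, which may be technical.

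An SR protein binds RNA through RNA recognition motifs and contacts the splicing machinery through a domain rich in arginine and serine. Bound to an enhancer in an exon, it usually favours the use of the neighbouring splice sites. The hnRNPs coat nascent transcripts in the nucleus through RNA recognition, KH or glycine-rich domains, and many of them silence exons, so both families often act on the same exon in opposite directions. Genes of both families are known to limit their own output, by splicing in an exon or intron that sends the transcript to nonsense-mediated decay. In muscle, such factors take part in the switch between fetal and adult isoforms of contractile and calcium-handling genes.

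Of the 10 SR protein genes, 9 were expressed in TA and all 9 were higher in the Exercise libraries. Their log2 fold changes ran from 0.54 for Srsf1 to 1.08 for Srsf10, with a median of 0.75. Of the 19 hnRNP genes, 18 were higher and none was lower, with a median log2 fold change of 0.82 and a range from 0.22 for Hnrnpa2b1 to 1.09 for Hnrnpa0. The test was limma on log2(TPM + 1), where TPM is the abundance of the transcripts of a gene per unit length as a part of the whole library, with a Benjamini-Hochberg adjusted p under 0.05 over all 13288 genes tested. The same test called 55.3% of all genes higher and 6.19% lower, and the median log2 fold change of all genes was 0.53. No member had a negative log2 fold change, so none was lower at an unadjusted p under 0.05 either. Without Exercise replicate 2 the test called 3 SR protein genes and 7 hnRNP genes higher, beside 2622 of all genes in place of 7344. All 9 SR protein genes and 16 of the 19 hnRNP genes lay above that median. Srsf12, an SR-related gene (ENSMUSG00000054679, chromosome 4), was listed at 0 in all 4 libraries and was not tested.

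The change shared by all genes has to be set beside these counts. The 50 most abundant genes held 62.0 and 58.9% of the TPM in the Control libraries and 50.1 and 45.3% in the Exercise libraries. Scaling each library by median-of-ratios factors (0.775 and 0.836 for Control, 1.20 and 1.31 for Exercise) places the median gene near no change. On this scale 10.6% of all genes were called higher and 16.8% lower. The scaled values called 1 SR protein gene higher, Srsf10, and 4 hnRNP genes higher, Hnrnpa0, Hnrnpl, Hnrnpf and Hnrnpk. Hnrnpa2b1 was called lower. Quantile normalization called 5 SR protein genes and 11 hnRNP genes higher and none lower, beside 15.9% of all genes higher and 13.2% lower. Without the 50 most abundant genes the counts were 5 and 14 higher and none lower, beside 25.9 and 11.4% of all genes. The medians after median-of-ratios scaling were 0.12 for the SR protein genes and 0.19 for the hnRNP genes, beside 0.00 for all genes. The scaled calls rested on all 4 libraries. Without Control replicate 1 they were Srsf10, Hnrnpl and Hnrnpa2b1, without Control replicate 2 Srsf10 and Hnrnpf, and without either Exercise library none of the 6 passed the test. Each kept its direction in these fits. The 6 had been picked on the same libraries, so this adds no separate support. Each such fit leaves 1 library in a group, so a lost call says little about the gene itself.

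**Figure D1:**
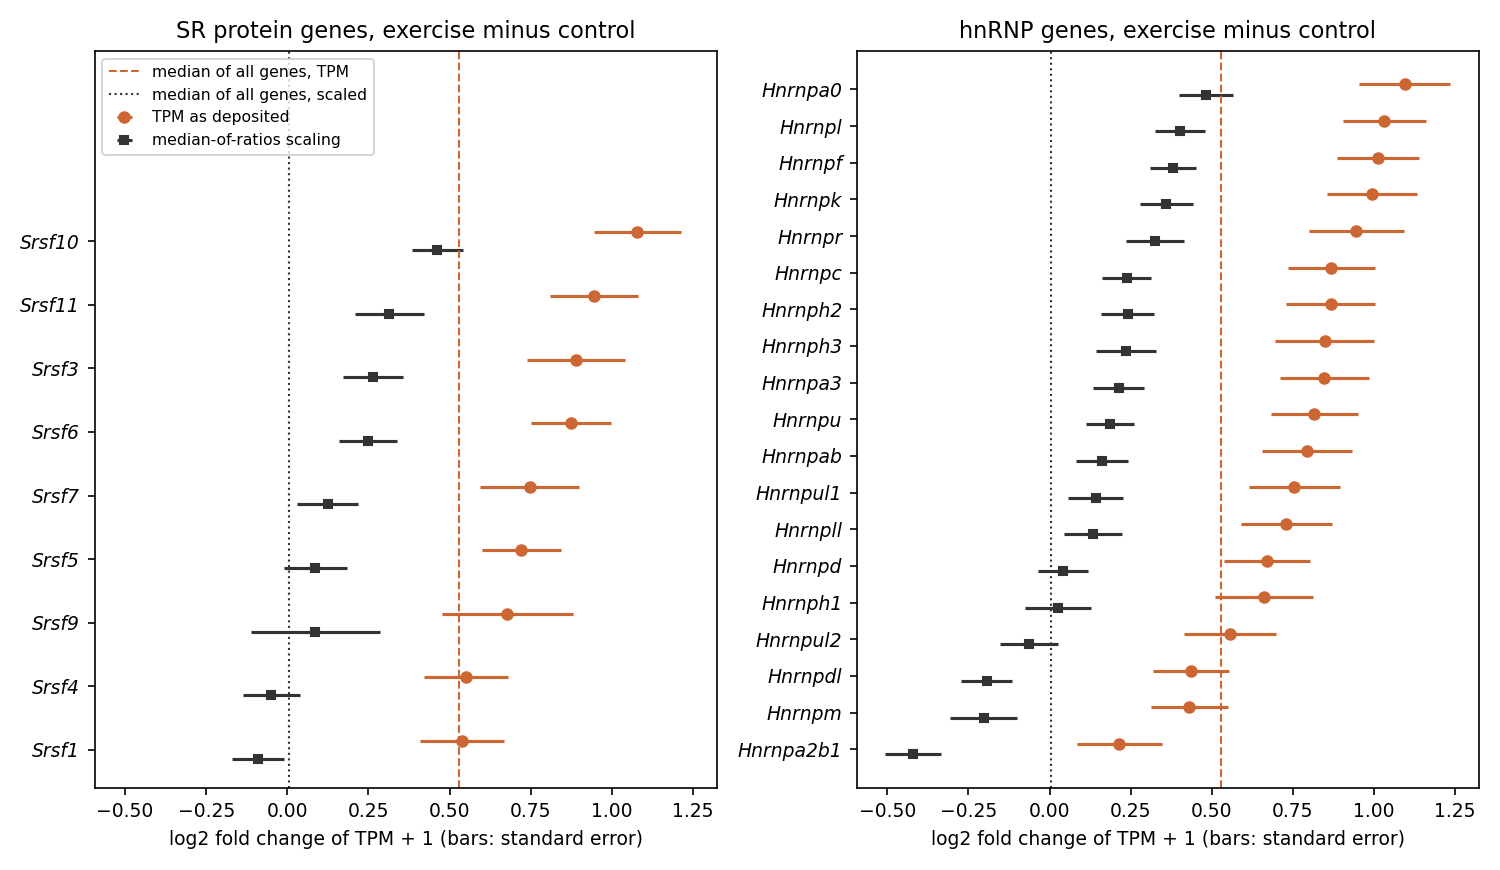
Log2 fold change (Exercise minus Control, of TPM + 1) of the 9 tested SR protein genes and the 19 hnRNP genes, with standard errors as bars, from the TPM as deposited (circles) and after median-of-ratios scaling (squares). The vertical lines mark the medians of all 13288 genes tested, 0.53 and 0.00. All circles lie above 0, while the squares run from -0.42 for Hnrnpa2b1 to 0.48 for Hnrnpa0.

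Some other transcripts moved with the groups in the same libraries. The summed TPM of 9 markers of muscle fibres was 123994 and 135210 in Control and 95817 and 78104 in Exercise libraries, and 6 of the 9 were called lower. That of 9 satellite cell markers, Pax7 and Myod1 among them, was 135 and 153 in Control and 303 and 346 in Exercise libraries, with 7 of 8 tested called higher. Adipocyte markers summed to 371 and 757 TPM in the Control libraries against 265 and 318 TPM in the Exercise libraries, with 6 of 7 tested called lower. Of all genes, 55.3% were called higher and 6.19% lower as deposited. After scaling 6 of 9 fibre markers and 6 of 7 adipocyte markers were called lower, beside 16.8% of all genes. Of the 8 satellite cell markers 5 were then called higher, beside 10.6% of all genes. Xist, the RNA of the inactive X chromosome, stood at 14.91 and 11.72 TPM in the Control libraries against 0.00 and 0.07 TPM in the Exercise libraries. Eif2s3y, a gene of the Y chromosome, stood at 0.30 and 0.00 TPM in the Control libraries against 16.68 and 25.17 TPM in the Exercise libraries. The methods name male mice, whose cells normally express the Y-linked gene and not Xist. These sex-linked transcripts split the libraries exactly as the groups do. A difference that goes with them therefore cannot be told apart from Exercise against Control in any value given here. Other cell type markers followed the groups less. None of 9 fibro-adipogenic progenitor markers and none of 4 red blood cell markers tested was called as deposited. Of 8 macrophage markers 1 was called lower, and of 8 endothelial markers 2 were called higher. Red blood cell markers summed to 699 and 163 TPM in the Control libraries against 609 and 572 TPM in the Exercise libraries. The part of cell makeup in the results was not tested. In whole muscle, fewer cells of a type and less RNA per cell cannot be told apart.

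The SR protein genes spanned a wide range of levels, from a mean over all libraries of 13.7 TPM for Srsf9 to 235 TPM for Srsf5. Srsf5, an SR protein with a pair of RNA recognition motifs, stood at 182.88 and 171.40 TPM in the Control libraries against 279.54 and 305.91 TPM in the Exercise libraries. Both Exercise libraries lay far above both Control libraries. The log2 fold change was 0.72 ± 0.12 (SE, adjusted p = 0.0047), and 0.09 (adjusted p = 0.54) after scaling, where the groups overlapped. Srsf11, an SR-related protein with a long arginine-serine domain, came next with 62.61 and 57.43 TPM in the Control libraries against 107.47 and 125.81 TPM in the Exercise libraries. Here the groups stayed apart on both scales, at 0.94 ± 0.14 (SE, adjusted p = 0.0034) as deposited and 0.31 (adjusted p = 0.091) after scaling. Srsf1, the founding member of the family, is used by most cells in both constitutive and regulated splicing. It stood at 61.77 and 63.01 TPM in the Control libraries against 84.70 and 97.84 TPM in the Exercise libraries. Its rise of 0.54 ± 0.13 (SE, adjusted p = 0.013) was the smallest of the 9 and was near the median of all genes. After scaling both Exercise libraries (70.8 and 74.7) lay below both Control libraries (79.7 and 75.3), a difference of -0.09 that did not pass the test (adjusted p = 0.43).

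**Figure D2:**
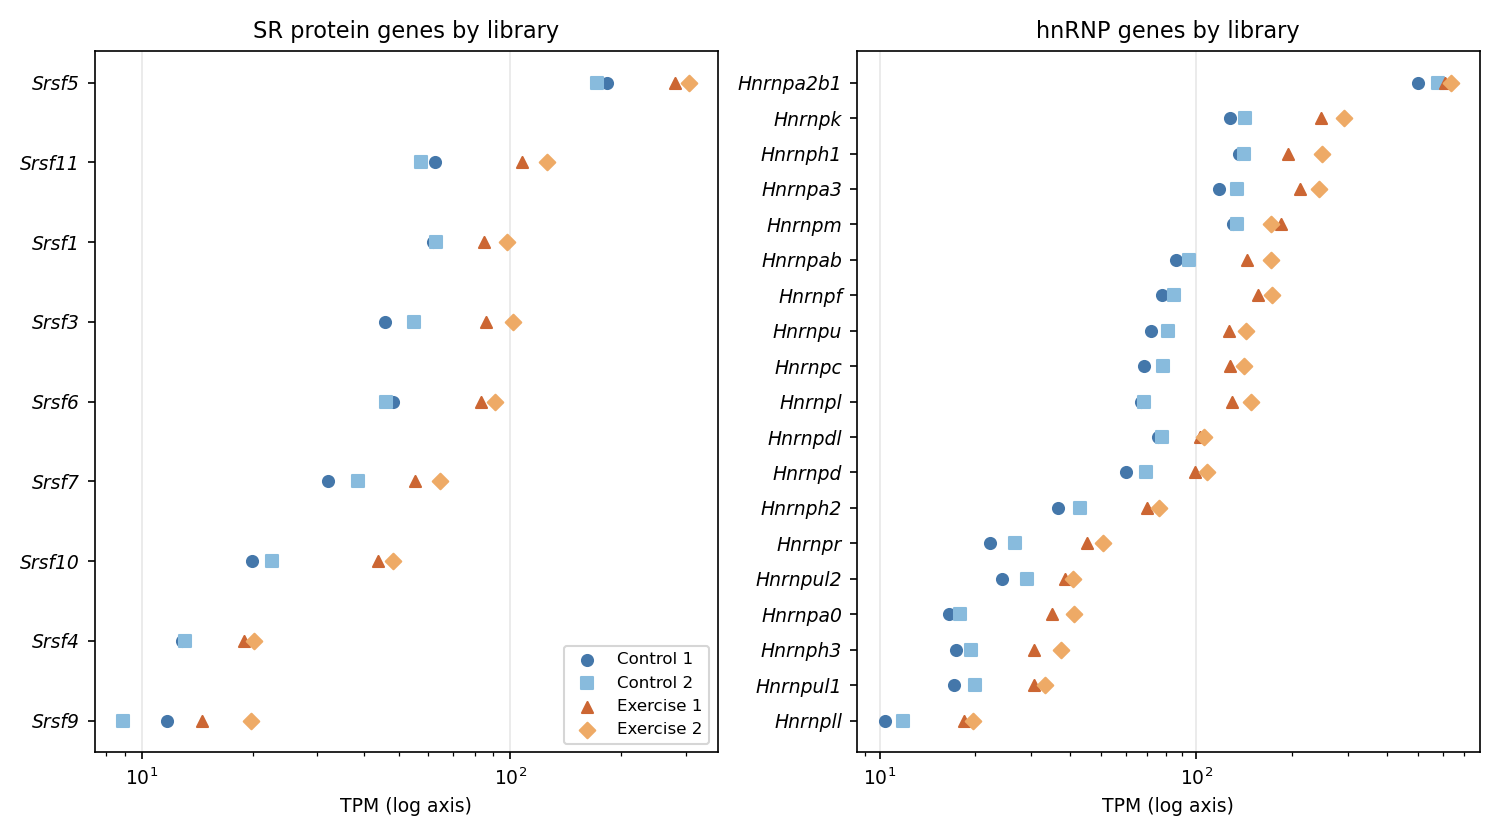
TPM (log axis) of each tested SR protein gene (left) and hnRNP gene (right) in the 4 libraries, ordered by mean level, with a marker for each library. In every one of the 28 genes both Exercise libraries lie above both Control libraries, with the narrowest gap in Hnrnpa2b1, between 577.43 and 610.20 TPM.

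Srsf10 showed the largest rise of the SR protein genes. It encodes a factor that turns from activator to general repressor of splicing when it loses its phosphates, as in heat shock. Its level was 19.92 and 22.54 TPM in the Control libraries against 43.88 and 47.94 TPM in the Exercise libraries, so the lower Exercise library was close to 2-fold the higher Control library. The mean rose from 21.2 ± 1.85 to 45.9 ± 2.87 TPM (SD, n = 2 each), a ratio of 2.16. The log2 fold change was 1.08 ± 0.13 (SE, adjusted p = 0.0029). Of all genes tested, 8.57% had a larger one. After scaling it was 0.46 ± 0.08 (SE, adjusted p = 0.018), with 36.7 and 36.6 in the Exercise and 25.7 and 26.9 in the Control libraries. Srsf10 was the only SR protein gene called on both scales.

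Srsf3, the smallest SR protein and an adaptor for mRNA export, stood at 45.73 and 54.71 TPM in the Control libraries against 85.95 and 101.84 TPM in the Exercise libraries. Its rise was 0.89 (adjusted p = 0.0047), and 0.26 (adjusted p = 0.098) after scaling with no overlap between groups. Srsf7, a close relative of Srsf3 with a zinc knuckle that also takes part in export, had 31.99 and 38.68 TPM in the Control libraries against 55.24 and 64.57 TPM in the Exercise libraries. The groups lay apart as deposited (0.75, adjusted p = 0.0077) and overlapped after scaling (0.12). Srsf6, like Srsf4 and Srsf5 a protein with a pair of RNA recognition motifs, rose from 48.14 and 45.97 TPM in the Control libraries to 83.30 and 91.14 TPM in the Exercise libraries (0.88, adjusted p = 0.0033, and 0.25 after scaling, adjusted p = 0.10). Srsf4 rose less, from 12.89 and 13.13 TPM to 18.91 and 20.13 TPM (0.55, adjusted p = 0.012), and turned to -0.05 after scaling. Srsf9, the least abundant of the 9, had 11.73 and 8.90 TPM in the Control libraries against 14.54 and 19.76 TPM in the Exercise libraries. Its libraries were the most scattered of the family, with the largest standard error (0.68 ± 0.20, adjusted p = 0.026).

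Across the whole table, 72.8% of all genes had both Exercise libraries above both Control libraries, beside 9 of 9 SR protein genes and 19 of 19 hnRNP genes. After scaling the background was 35.6% in that direction and 35.1% in the other. The SR protein genes then had 4 higher (Srsf10, Srsf11, Srsf3 and Srsf6) and 1 lower (Srsf1). The hnRNP genes had 13 higher and 3 lower, the latter being Hnrnpa2b1, Hnrnpm and Hnrnpdl.

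Among the hnRNP genes, the A/B group encodes proteins with a pair of RNA recognition motifs and a glycine-rich tail. Hnrnpa2b1, whose protein binds and sorts many RNAs and has been proposed as a reader of m6A in the nucleus, was by far the most abundant member of either family. It stood at 499.54 and 577.43 TPM in the Control libraries against 610.20 and 637.59 TPM in the Exercise libraries. The groups did not overlap, yet the distance between them was less than that between the Control libraries. The log2 fold change of 0.22 ± 0.13 (SE) did not pass the test (adjusted p = 0.19), and 73.7% of all genes tested had a larger one. After scaling the order turned round, with 644.7 and 690.4 in Control and 509.8 and 486.9 in Exercise libraries. The scaled difference was -0.42 ± 0.09 (SE, adjusted p = 0.028). After quantile normalization it was -0.11 and without the 50 most abundant genes -0.19, neither of which passed the test (adjusted p = 0.39 and 0.13). The direction of Hnrnpa2b1 therefore depended on the scaling.

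Hnrnpa0, a small A/B member best known for binding AU-rich RNA, lay at the other end of the family. Its level was 16.53 and 17.95 TPM in the Control libraries against 35.03 and 41.03 TPM in the Exercise libraries, with Exercise high in both. The ratio of the means was 2.21, the log2 fold change 1.09 ± 0.14 (SE, adjusted p = 0.0030) and the scaled value 0.48 (adjusted p = 0.019). Hnrnpa3 stood at 117.63 and 134.43 TPM in the Control libraries against 211.51 and 243.55 TPM in the Exercise libraries (0.85, adjusted p = 0.0042, and 0.21 after scaling, adjusted p = 0.11). The table holds a further row, described as a pseudogene of Hnrnpa3, with TPM of its own, so its level is uncertain where reads are shared between the copies. Hnrnpab, the remaining A/B gene, rose by 0.79 on the log2 scale (adjusted p = 0.0050).

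The other hnRNP genes called on both scales bind quite different sequences. Hnrnpl, whose protein binds CA repeats, stood at 66.60 and 68.17 TPM in the Control libraries against 129.58 and 148.60 TPM in the Exercise libraries. Hnrnpf, which binds runs of G, had 77.70 and 84.88 TPM in the Control libraries against 156.76 and 173.11 TPM in the Exercise libraries. Hnrnpk, which binds runs of C through KH domains, had 127.46 and 142.53 TPM in the Control libraries against 247.80 and 292.81 TPM in the Exercise libraries. In each of them the lower Exercise library was at least 1.5-fold the higher Control library. The log2 fold changes were 1.03 for Hnrnpl, 1.01 for Hnrnpf and 0.99 for Hnrnpk (adjusted p = 0.0029, 0.0029 and 0.0033), and 0.40, 0.38 and 0.36 after scaling (adjusted p = 0.024, 0.021 and 0.034).

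Relatives of these genes moved by different amounts. Of the H group, which like Hnrnpf binds runs of G, Hnrnph1 was the most abundant, at 136.32 and 141.53 TPM in the Control libraries against 194.69 and 248.61 TPM in the Exercise libraries. Its Exercise libraries were far apart, and it rose by 0.66 ± 0.15 (SE, adjusted p = 0.011) as deposited and 0.03 after scaling, where the groups overlapped. Hnrnph2, the only member of either family on the X chromosome, had 36.47 and 42.81 TPM in the Control libraries against 69.83 and 76.02 TPM in the Exercise libraries (0.87, adjusted p = 0.0040, and 0.24 after scaling, adjusted p = 0.088). Hnrnph3 rose by 0.85 (adjusted p = 0.0053). Hnrnpll, the paralog of Hnrnpl that lymphocytes use in the splicing of CD45, was the least abundant hnRNP gene at 10.41 to 19.71 TPM, and rose by 0.73 (adjusted p = 0.0065).

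The hnRNP genes with the smallest rises included Hnrnpm and Hnrnpdl. Hnrnpm, a splicing regulator that binds GU-rich RNA, stood at 129.98 and 133.82 TPM in the Control libraries against 184.18 and 172.27 TPM in the Exercise libraries. Hnrnpdl, a relative of the AU-rich element binding protein AUF1 that Hnrnpd encodes, had 75.59 and 77.63 TPM in the Control libraries against 102.60 and 105.44 TPM in the Exercise libraries. Both sets of libraries lay close together within each group. The rises were 0.43 (adjusted p = 0.020) and 0.44 (adjusted p = 0.018), below the median of all genes, and after scaling the values were -0.20 and -0.19 (adjusted p = 0.20 and 0.13) with no overlap. Hnrnpul2 had 24.27 and 29.13 TPM in the Control libraries against 38.43 and 40.66 TPM in the Exercise libraries (0.55, adjusted p = 0.016) and turned to -0.06 after scaling. Its relatives Hnrnpu, which binds both RNA and chromatin, and Hnrnpul1 rose by 0.82 and 0.75 (adjusted p = 0.0043 and 0.0059). Hnrnpc, whose tetramer wraps nascent transcripts, rose by 0.87 (adjusted p = 0.0038). Hnrnpr, which is close to Syncrip, rose by 0.94 (adjusted p = 0.0039) and Hnrnpd by 0.67 (adjusted p = 0.0071). None of these 5 was called after scaling, with values from 0.04 for Hnrnpd to 0.33 for Hnrnpr.

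A share within the family does not depend on how a library is scaled. The summed TPM of the SR protein genes was 477.66 and 475.77 in Control and 773.53 and 874.94 in Exercise libraries, a ratio of 1.73 that became 1.11 after scaling. The hnRNP genes summed to 1661.24 and 1851.83 TPM in the Control libraries against 2603.44 and 2884.65 TPM in the Exercise libraries. That is a ratio of 1.56, which became 1.00 after scaling. A sum is weighted toward abundant genes, here above all Hnrnpa2b1. The median log2 fold changes had the other order, 0.75 for the SR protein genes and 0.82 for the hnRNP genes. After scaling they were 0.12 and 0.19. Hnrnpa2b1 made up 30.1 and 31.2% of the hnRNP sum in Control but 23.4 and 22.1% in Exercise libraries, 7.86 percentage points less on average and without overlap. Hnrnpk took 7.67 and 7.70% in Control and 9.52 and 10.2% in Exercise libraries. Without Hnrnpa2b1 in the sum, Hnrnpk still went from 11.0 and 11.2% to 12.4 and 13.0%, and Hnrnpm from 11.2 and 10.5% to 9.24 and 7.67%. These shares are given as a description and were not tested.

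Within the SR protein genes no share moved as far as that of Hnrnpa2b1 in its family. Srsf5 held 38.3 and 36.0% of the sum in Control and 36.1 and 35.0% in Exercise libraries, and the groups overlapped. Srsf1 went from 12.9 and 13.2% to 11.0 and 11.2%, and Srsf10 from 4.17 and 4.74% to 5.67 and 5.48%, both without overlap. Without Srsf5 in the sum, Srsf1 went from 21.0 and 20.7% to 17.1 and 17.2%, 3.66 percentage points less on average. That was further than Hnrnpk or Hnrnpm moved without Hnrnpa2b1. The summed SR TPM per summed hnRNP TPM was 0.288 and 0.257 in Control and 0.297 and 0.303 in Exercise libraries. The hnRNP sum in this ratio includes Hnrnpa2b1, whose large share was smaller in Exercise libraries. A ratio without it was not computed, so these values do not show that SR protein genes in general gained on hnRNP genes.

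**Figure D3:**
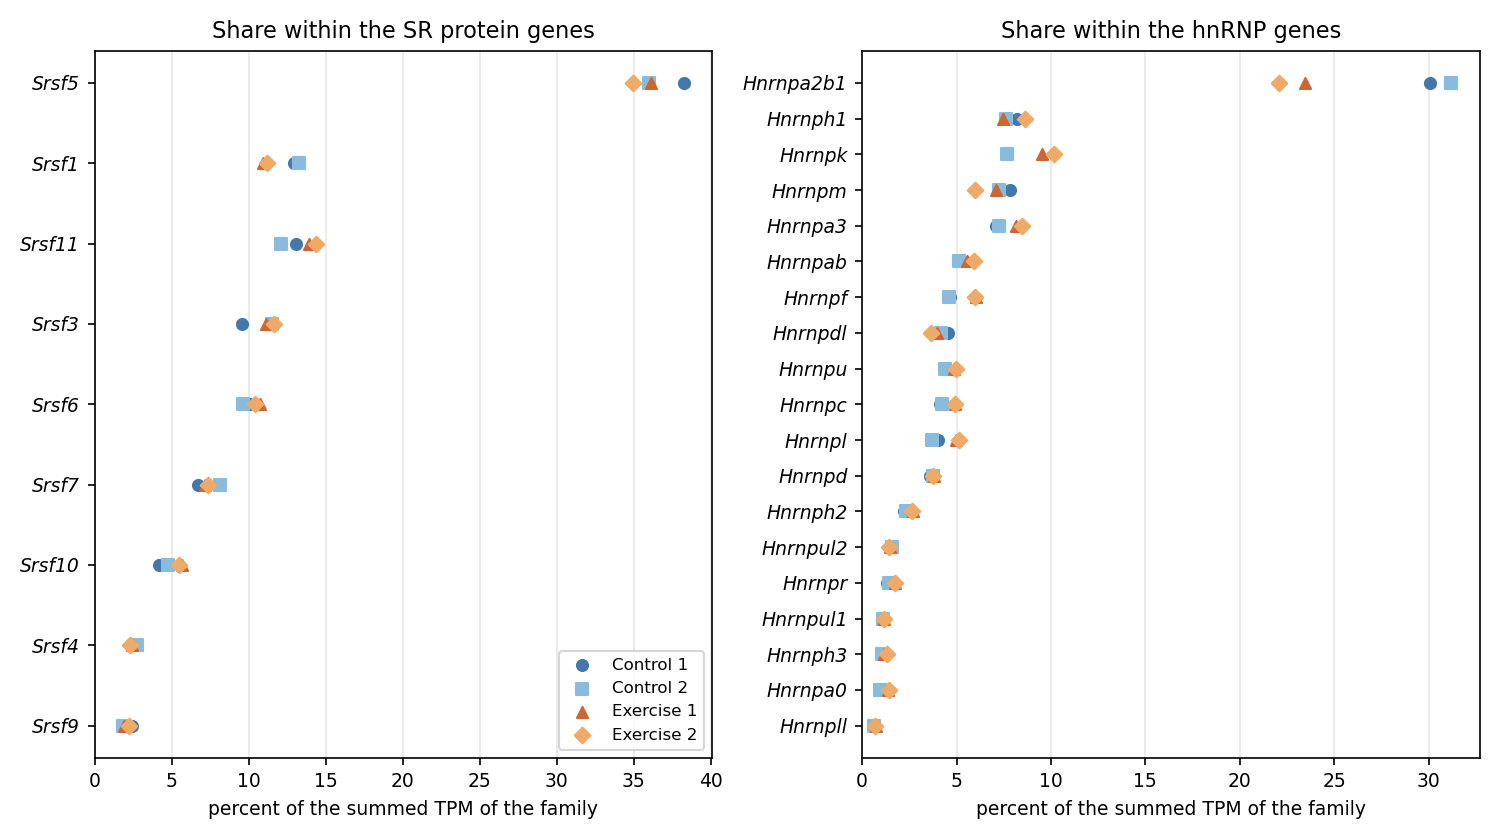
Percent of the summed TPM of its family that each gene held in each of the 4 libraries, for the 9 expressed SR protein genes (left) and the 19 hnRNP genes (right). Hnrnpa2b1 drops from 30.1 and 31.2% in Control to 23.4 and 22.1% in Exercise libraries, and Hnrnpk goes the other way.

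The rule leaves out Srsf2 and Hnrnpa1, whose rows carry the biotype nonsense-mediated decay although both encode well-known proteins. Srsf2, an SR protein that binds exonic enhancers, stood at 57.13 and 58.88 TPM in the Control libraries against 85.47 and 95.98 TPM in the Exercise libraries (0.63, adjusted p = 0.0070, and 0.01 after scaling). Hnrnpa1, the classic opponent of SRSF1 in the choice between competing splice sites, had 112.37 and 135.04 TPM in the Control libraries against 207.14 and 230.51 TPM in the Exercise libraries (0.82, adjusted p = 0.0049, and 0.19 after scaling, adjusted p = 0.17). Neither row was counted with the families. The ratio of Srsf1 to Hnrnpa1, which does not depend on scaling, was 0.550 and 0.467 in Control and 0.409 and 0.424 in Exercise libraries. Both Exercise values were lower, with a log2 difference of -0.28. An exact two-sided permutation test gave p = 0.333, the smallest value that 2 against 2 libraries allow. The remaining rows outside the rule, Srsf3-ps, Hnrnpa1l2-ps and Hnrnpa1l2-ps2, are processed pseudogenes with at most 0.17 TPM.

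The gene values sum all transcripts of a gene, including those that are not translated. In the GENCODE vM21 annotation, 8 of the 10 SR protein genes and 9 of the 19 hnRNP genes have at least 1 transcript annotated as a target of nonsense-mediated decay. Retained-intron transcripts are annotated for 7 and 14 of them. Srsf10 has none of either kind and Hnrnpa0 a lone protein-coding transcript, while Hnrnpa2b1 has 2 decay transcripts and 5 with a retained intron. A rise or fall of such transcripts cannot be told apart from one of the protein-coding transcripts in these values.

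The promoters of the gene that rose most in each family, and of the member that rose least of all, are shown. The sequence at which these transcripts begin thus stands beside their levels. RefSeq windows on GRCm38.p6 matched 27 of the 29 genes by symbol. The motifs searched on both strands were the letters TATAAA of the TATA box, CCAAT of the box named after it, GGGCGG of the Sp1-type box, CCGGAA of the core of ETS sites, TGACG of the cAMP response element and GCATGCGC of NRF1-type sites. They were chosen with the sequences in view, and their matches, some of which could overlap, are in capitals. The 250 bases before the start of each gene read 5′ to 3′ on the strand of the gene as follows. For Hnrnpa2b1 the window that lies further upstream of the 2 in RefSeq is shown.
Srsf10, chr4:135855821-135856070, plus strand: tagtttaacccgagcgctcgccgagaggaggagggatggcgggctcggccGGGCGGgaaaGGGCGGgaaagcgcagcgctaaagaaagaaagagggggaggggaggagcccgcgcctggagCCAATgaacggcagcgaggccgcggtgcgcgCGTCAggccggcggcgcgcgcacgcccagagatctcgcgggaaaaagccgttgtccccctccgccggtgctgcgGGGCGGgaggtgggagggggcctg
Hnrnpa0, chr13:58128557-58128806, minus strand: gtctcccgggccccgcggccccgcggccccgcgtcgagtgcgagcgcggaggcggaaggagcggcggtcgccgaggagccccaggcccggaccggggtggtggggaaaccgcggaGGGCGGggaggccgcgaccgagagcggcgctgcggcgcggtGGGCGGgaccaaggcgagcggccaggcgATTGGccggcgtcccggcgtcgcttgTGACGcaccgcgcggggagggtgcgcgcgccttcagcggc
Hnrnpa2b1, chr6:51469895-51470144, minus strand: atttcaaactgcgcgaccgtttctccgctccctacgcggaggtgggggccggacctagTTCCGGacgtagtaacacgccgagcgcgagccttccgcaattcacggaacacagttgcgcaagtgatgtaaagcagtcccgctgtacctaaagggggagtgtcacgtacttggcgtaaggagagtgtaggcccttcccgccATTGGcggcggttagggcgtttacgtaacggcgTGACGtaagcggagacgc

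All of these windows are rich in CpG dinucleotides and lack the TATA box letters. Srsf10 has 33 CpG, Hnrnpa0 46 and Hnrnpa2b1 29 in the 250 bases, and each holds the CCAAT and TGACG letters. Sp1-type boxes occur in the windows of Srsf10 and Hnrnpa0 but not of Hnrnpa2b1, which has the ETS core. The window of Srsf1, the SR protein gene with the smallest rise, holds both the Sp1-type box and the ETS core. A link between these letters and the size of the rise was not tested. Over the families, the Sp1-type box was found in 9 of 10 SR protein genes and 13 of 17 hnRNP genes, beside 35.4% of the 27025 genes of the table. The CCAAT letters were found in 2 of 10 and 12 of 17, beside 37.5%, and the ETS core in 5 of 10 and 5 of 17, beside 13.6%. TGACG was found in 6 of 10 and 10 of 17, beside 19.8%, and the NRF1-type core in 2 of 10 and 1 of 17, beside 2.56%. The TATA box letters occurred in 1 gene of each family, Srsf3 and Hnrnpm, beside 14.3% of all genes. The median CpG count was 24 for the SR protein genes and 29 for the hnRNP genes, beside 6 for all genes of the table. Where a gene had several windows, a motif in any of them counted and the highest CpG count was taken. Genes with more windows thus had more chances of a match. No window set matched for CpG or for the number of windows was compared.

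Lists of other splicing genes show whether the partners of the families moved with them. Of 10 genes for SR protein kinases and for importers of splicing proteins, 9 were called higher and none lower, beside 55.3% of all genes higher. Their median log2 fold change was 0.63, beside 0.53 for all genes. After scaling 1 of the 10 (Tnpo1) was called higher, which is near the 10.6% of all genes. Tnpo1, an importer of hnRNP A1, stood at 9.95 and 11.88 TPM in the Control libraries against 23.45 and 25.95 TPM in the Exercise libraries (1.11, adjusted p = 0.0031, and 0.51 after scaling, adjusted p = 0.021). Srpk2, which phosphorylates SR proteins in the cytoplasm, rose by 0.84 (adjusted p = 0.0046). Of the nuclear kinases, Clk1 rose by 0.68 (adjusted p = 0.0088) while Clk4 was at 51.30 and 46.50 TPM in the Control libraries against 55.74 and 65.31 TPM in the Exercise libraries, with a log2 fold change of 0.30 that did not pass the test (adjusted p = 0.10). Tnpo3, which imports phosphorylated SR proteins, rose by 0.45 (adjusted p = 0.025).

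Of 22 SR-related splicing proteins tested, 21 were called higher and none lower (median 0.71), beside 55.3% of all genes higher. None was called after scaling, beside 10.6% of all genes higher and 16.8% lower. At an unadjusted p under 0.05 after scaling, 2 of the 22 were higher and 1 lower. Of all 13288 genes tested, 2533 were higher and 3163 lower at that threshold. Within the list, Bclaf1 and Srek1 had the smallest p as deposited, with rises of 0.91 and 0.84 (adjusted p = 0.0034 and 0.0038). Son and Srrm2, the scaffold proteins of nuclear speckles, were the most abundant. Son rose from 119.29 and 114.06 TPM in the Control libraries to 178.26 and 185.73 TPM in the Exercise libraries (0.64, adjusted p = 0.0057). Srrm2 stood apart from the list, at 116.82 and 94.70 TPM in the Control libraries against 117.46 and 119.43 TPM in the Exercise libraries (0.17, adjusted p = 0.32), with its Exercise libraries barely above the higher Control library.

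Of 27 genes tested whose proteins belong to the hnRNPs under other symbols, 24 were called higher and none lower, beside 55.3% of all genes higher, with a median of 0.82 as in the Hnrnp genes. After scaling 4 were called higher (Pcbp4, Ptbp1, Fubp1 and Sfpq) and 1 lower (Pcbp2), beside 10.6% of all genes higher and 16.8% lower. Pcbp4, a relative of hnRNP K with KH domains, stood at 36.06 and 35.56 TPM in the Control libraries against 77.02 and 92.41 TPM in the Exercise libraries (1.21, adjusted p = 0.0028, and 0.59 after scaling). Ptbp1, the polypyrimidine tract binding protein that silences many exons, had 13.62 and 13.40 TPM in the Control libraries against 27.13 and 30.09 TPM in the Exercise libraries (1.03, adjusted p = 0.0030, and 0.42 after scaling). Pcbp2, the most abundant KH relative, was at 187.44 and 187.59 TPM in the Control libraries against 211.25 and 228.91 TPM in the Exercise libraries (0.23, adjusted p = 0.13). Its scaled value of -0.41 (adjusted p = 0.024) is close to that of Hnrnpa2b1.

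Of 35 genes of the core spliceosome, 29 were called higher and none lower (median 0.73), beside 55.3% of all genes higher. After scaling 5 were called higher, Sf3a3, Sf3b3, Snrpd1 and Snrpf among them, and 1 was called lower (Snrpb), beside 10.6% of all genes higher and 16.8% lower. Snrpd1, of the ring of Sm proteins around the spliceosomal RNAs, rose from 32.44 and 37.20 TPM in the Control libraries to 75.53 and 84.25 TPM in the Exercise libraries (1.18, adjusted p = 0.0028, and 0.55 after scaling, adjusted p = 0.012). Snrpb, of the same ring, was at 66.71 and 68.67 TPM in the Control libraries against 74.26 and 77.24 TPM in the Exercise libraries (0.16, adjusted p = 0.27, and -0.47 after scaling, adjusted p = 0.017). No test of the difference between these genes of the same ring was run. Snrpe and Prpf19, the most abundant of the list, rose by 0.71 and 0.52 (adjusted p = 0.0050 and 0.016).

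Of 15 genes of nonsense-mediated decay and the exon junction complex, the machinery that reads the unproductive transcripts of both families, 11 were called higher and none lower, beside 55.3% of all genes higher (median 0.61, beside 0.53 for all genes). After scaling 2 were called higher (Eif4a3 and Smg1) and 1 lower (Upf2), beside 10.6% of all genes higher and 16.8% lower. Eif4a3, the RNA clamp of the exon junction complex, rose from 36.70 and 39.12 TPM in the Control libraries to 69.80 and 79.85 TPM in the Exercise libraries (0.96, adjusted p = 0.0032), and its partner Magoh rose by 0.82 (adjusted p = 0.0036). Upf2 overlapped between groups, at 10.33 and 13.52 TPM in the Control libraries against 11.87 and 13.57 TPM in the Exercise libraries (0.09, adjusted p = 0.65, and -0.49 after scaling, adjusted p = 0.044). Tnpo3, Sf3a3, Sf3b3, Snrpb, Snrpf, Fubp1, Sfpq, Smg1 and Upf2 were named after their values were seen.

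**Figure D4:**
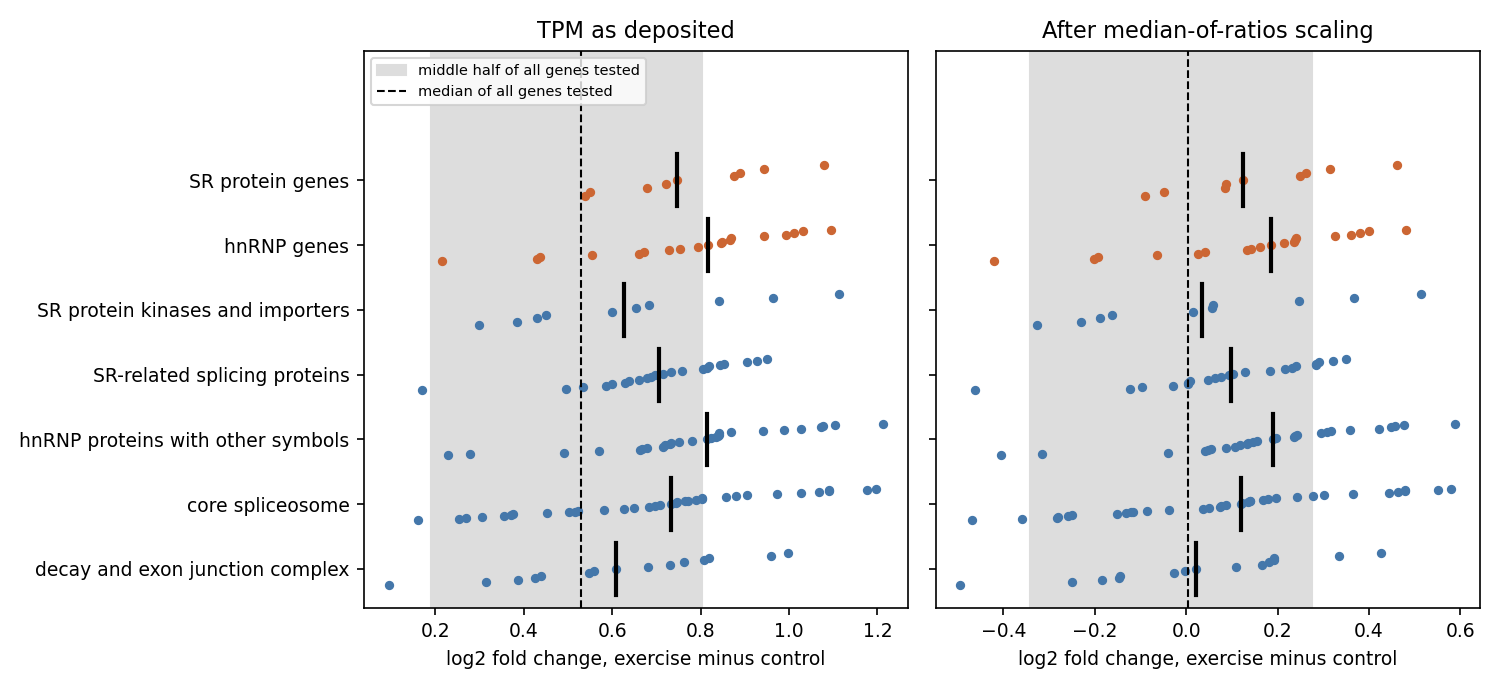
Log2 fold change (Exercise minus Control) of each tested gene of the SR protein and hnRNP families and of 5 lists of other splicing genes, as deposited (left) and after median-of-ratios scaling (right), with list medians as short bars. The grey band spans the quartiles of all 13288 genes tested, 0.19 to 0.80 on the left and -0.34 to 0.28 on the right, and all list medians lie above the dashed median of all genes.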

How the data were processed

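The authors deposited 1 table of TPM, from RNA of TA muscle, with 4 library columns, rounded to 2 decimals and summing to the same total in each library. Per the submitters' processing notes, fastp, HISAT2 and StringTie were used with GRCm39 (versions not given in the sources used here). The labels name an Illumina stranded kit and the methods a NEBNext kit. TPM keeps no sequencing depth, so no counting error is given. The 13288 genes that reached 1 TPM in 2 or more libraries, whatever the group, were tested by limma 3.58.1 in R 4.3.3 (eBayes with trend) on log2(TPM + 1), with no covariate. A fold change on this scale understates the change of low genes. Tables and figures were made with Python 3.11.15, pandas 2.3.3, numpy 2.4.6 and matplotlib 3.10.9. The fit was tested on simulated data. Values in every library are given for the 3 highest and the 3 largest and smallest changes in each family, members called lower or called after scaling, and members that turned sign. For the lists, the 2 smallest p and the 2 highest means are named, except for genes that are not reported here. Members and lists were chosen with earlier results of these data known. Alternatives were other pseudocounts, filters and scalings, the omission of each library and a block for the replicate number. Protein sequences were not used here.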

Additional observations from a re-analysis of the deposited data

How the results depend on the processing

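The 9 SR protein genes and 18 hnRNP genes called higher became 1 and 4 after median-of-ratios scaling (with 1 hnRNP gene lower), 5 and 11 after quantile normalization, and 5 and 14 without the 50 most abundant genes. Over all genes the 7344 higher and 822 lower became 1403 and 2238, 2109 and 1753, and 3432 and 1508. With each library left out, 3 to 9 SR protein genes and 7 to 18 hnRNP genes were called. The lowest counts, 3 and 7, came without Exercise replicate 2, where all genes had 2622 higher and 410 lower. With no filter, 8 and 16 were called, and 4513 of all genes were higher and 456 lower. Requiring a fold over 1.5 as well gave 8 and 15, beside 6447 higher and 719 lower over all genes. The counts stayed at 9 and 18 with pseudocounts of 0.1 and 0.01, a mean of at least 5 TPM, protein-coding genes alone, and limma without the trend. Of all genes, 7215, 7173, 5341, 7184 and 7359 were higher in these fits, in that order, and 796, 783, 575, 783 and 806 lower. The mean filter left 8661 genes and the protein-coding genes numbered 11652. Scaling with each library left out, added after seeing the data, gave 0 to 1 SR protein genes higher, and 0 to 1 hnRNP genes higher and 0 to 1 lower. Over all genes that gave 683 and 906 higher without Control replicates 1 and 2, and 63 and 22 higher without Exercise replicates 1 and 2.

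Median-of-ratios scaling turned the sign of Srsf1 (-0.091), Srsf4 (-0.049), Hnrnpul2 (-0.063), Hnrnpdl (-0.19), Hnrnpm (-0.20) and Hnrnpa2b1 (-0.42, and -0.47, -0.37, -0.45 and -0.39 without Control replicate 1, Control replicate 2, Exercise replicate 1 and Exercise replicate 2). Hnrnpa2b1 also turned after quantile normalization (-0.11) and without the 50 most abundant genes (-0.19). Without Hnrnpa2b1 in the sum, the mean shares of Hnrnph1 (-1.004 points), Hnrnpd (-0.42 points), Hnrnpll (-0.011 points) and Hnrnpul1 (-0.014 points) changed from higher to lower in Exercise. The groups overlapped for Hnrnph1 and Hnrnpd with Hnrnpa2b1 in the sum, and for Hnrnpll and Hnrnpul1 without it. The causes were not tested.

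The replicate numbers were taken as names only. Same-numbered libraries did not deviate together (r = -0.05 across genes), which with 2 libraries per group cannot exclude a pairing or a batch. With the replicate number as a block, 9 SR protein genes and 18 hnRNP genes were called, beside 7400 higher and 830 lower over all genes.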

Other observations

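Rows named as copies of family members were outside the rule and in no comparison. A lncRNA row named Gm6793 (ENSMUSG00000121776), described in the table as an Hnrnpa3 pseudogene, stood at 80.96 and 104.75 TPM in the Control libraries against 169.16 and 170.21 TPM in the Exercise libraries. Its log2 fold change was 0.87 (adjusted p = 0.0051 from limma), and 0.24 after median-of-ratios scaling (adjusted p = 0.18). These levels are close to those of Hnrnpa3 itself, 117.63 to 243.55 TPM, and reads shared by the copies cannot be told apart in this table. A transcribed pseudogene, Gm5641, had 6.18 and 14.24 TPM in the Control libraries against 17.70 and 23.31 TPM in the Exercise libraries (1.03, adjusted p = 0.039 from limma, and 0.44 after scaling, adjusted p = 0.39).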
